A study of Mus musculus with 18 samples.

Results

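The genes described here are 8 genes of mouse CD8+ T cells that belong to the choice and upkeep of T cell lineages: Zbtb7b, Foxp3, Ikzf2, Gata3, Runx1, Runx3, and the CD8 coreceptor chains Cd8a and Cd8b1. They were taken by gene symbol from a deposited table of read counts, and all 8 were among its 14695 genes. Zbtb7b and Foxp3 were selected on their measured changes with drug and knockout in these samples, so their values are given as a description with no test. The other 6 genes were tested, with p-values adjusted over all 14695 genes. Poly-A RNA was sequenced from primary CD8+ T cells of mouse spleen and lymph node in 18 libraries, 3 in each of 6 groups. The groups were CEBPG KO cells (Cebpg knockout below) with halofuginone, CEBPG KO cells untreated, ATF4 KO cells (Atf4 knockout below) with halofuginone, ATF4 KO cells untreated, Rosa26 cells with halofuginone and Rosa26 cells untreated. Every group, Rosa26 included, had been edited with CRISPR/Cas9, with guides to the neutral Rosa26 locus serving as the control, and every group was cultured for 24 h with or without the drug. The sources used here do not give the dose, the share of cells edited, the age or strain of the mice, or whether the 3 libraries of a group were separate mice or cultures, so each p-value below reflects only the spread among these samples.

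Halofuginone inhibits prolyl-tRNA synthetase, and the uncharged tRNA that builds up switches on the amino acid response, in which the transcription factor ATF4, often paired with the C/EBP family member C/EBPγ (the product of Cebpg), drives genes of amino acid supply and tRNA charging. In the thymus, CD4 and CD8 T cells part through opposed factors. ThPOK, the product of Zbtb7b, holds the CD4 helper programme and represses CD8 lineage genes, while RUNX1 and RUNX3, bound to their partner CBFβ, silence Zbtb7b and Cd4 in the CD8 lineage, and RUNX3 activates enhancers of the Cd8 locus. GATA3 acts upstream of ThPOK in the CD4 lineage and is also used by mature CD8 T cells. FOXP3 defines regulatory T cells, and Helios, the product of Ikzf2, is an Ikaros family factor of regulatory T cells that other activated T cells can express. The CD8 α and β chains form the coreceptor that binds MHC class I.

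Libraries held 14.2 to 20.3 M counts (M, mega). The labelled cell type was checked against its markers: Cd8a ran from 930 to 1169 CPM (counts per M of library size, scaled with TMM factors) over the 18 libraries, Cd8b1 from 335 to 459 CPM, Cd3e from 152 to 196 CPM and Trac from 133 to 183 CPM. Cd4 was not analysed here. The transcripts of both edited genes were found in all groups (Atf4 from 257 to 428 CPM, Cebpg from 52.8 to 183 CPM), so the counts do not check the genotype labels. In each halofuginone group, 1 library stood apart in the nuclear RNA Malat1: replicate 3 of Cebpg knockout had 1960 CPM beside 3237 and 3580 CPM, replicate 3 of Atf4 knockout had 1158 CPM beside 2404 and 3415 CPM, and replicate 2 of Rosa26 had 672 CPM beside 2074 and 2607 CPM. Where leaving out these 3 libraries changed whether a member passed, the value without them is given. That setting called more of all genes in each comparison (26.7%, against 5%, in untreated Cebpg knockout against Rosa26). Untreated Rosa26 libraries were also low in Malat1, at 858 to 1168 CPM. Untreated Cebpg knockout had 2048 to 2364 CPM and untreated Atf4 knockout 2026 to 2606 CPM. The 3 libraries low in Malat1 named below are the treated ones. Untreated libraries all stayed in that setting, so it does not even out Malat1 between groups. Of lists of other cell types, 3 of 9 B cell markers (summed level 7.43 to 14.7 CPM over all libraries), 2 of 12 myeloid markers (2.99 to 7.86 CPM) and 3 of 8 erythroid and platelet markers (3.03 to 12.6 CPM) were in the table. The NK list (3 of 7, 69.0 to 108 CPM) holds genes that CD8 T cells also transcribe, such as Eomes and Klrk1. The gamma-delta and innate-like list (2 of 7, 99.6 to 147 CPM) was mostly Trdc, the constant gene of the T cell receptor δ chain. Trdc ran from 98.3 to 145 CPM, and which cells its reads came from was not tested.

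The sequences just before the transcription starts of Zbtb7b, Foxp3, Runx3 and Cd8a are shown because these are the member promoters that held a match to a motif searched, with the upstream start of Zbtb7b beside its downstream start. They come from RefSeq on GRCm38.p6; 6 of the 8 members had an entry there, with 10 promoters in all. Each run is the 250 bases before the start, 5′ to 3′ on the gene's strand, and capitals mark letters that match a motif on either strand: TGTGGT for RUNX, AGATAA for GATA, TTGCNNAA for C/EBP and TGATGNAA for the composite of ATF4 and C/EBP.
Zbtb7b, upstream start (chr3:89393379-89393628, minus strand): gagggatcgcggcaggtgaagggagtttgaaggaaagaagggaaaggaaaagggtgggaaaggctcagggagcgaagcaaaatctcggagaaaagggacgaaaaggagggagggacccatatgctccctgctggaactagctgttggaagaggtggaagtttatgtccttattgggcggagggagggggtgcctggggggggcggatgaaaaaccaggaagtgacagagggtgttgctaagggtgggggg
Zbtb7b, downstream start (chr3:89387672-89387921, minus strand): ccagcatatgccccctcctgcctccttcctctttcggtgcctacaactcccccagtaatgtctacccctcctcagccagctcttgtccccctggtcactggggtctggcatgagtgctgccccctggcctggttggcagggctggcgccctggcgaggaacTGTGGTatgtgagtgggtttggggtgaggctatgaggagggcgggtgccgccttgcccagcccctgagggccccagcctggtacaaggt
Foxp3 (chrX:7580233-7580482, plus strand): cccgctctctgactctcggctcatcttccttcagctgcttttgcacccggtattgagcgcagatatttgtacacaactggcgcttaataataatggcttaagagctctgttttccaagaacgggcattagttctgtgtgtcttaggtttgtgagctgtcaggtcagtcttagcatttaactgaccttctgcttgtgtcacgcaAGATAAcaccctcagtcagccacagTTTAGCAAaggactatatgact
Runx3 (chr4:135120395-135120644, plus strand): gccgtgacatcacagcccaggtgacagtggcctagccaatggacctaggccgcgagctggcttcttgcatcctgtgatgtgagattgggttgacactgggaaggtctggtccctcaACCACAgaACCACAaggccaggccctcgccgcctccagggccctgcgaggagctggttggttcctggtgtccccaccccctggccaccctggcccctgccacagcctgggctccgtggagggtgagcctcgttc
Cd8a (chr6:71373177-71373426, plus strand): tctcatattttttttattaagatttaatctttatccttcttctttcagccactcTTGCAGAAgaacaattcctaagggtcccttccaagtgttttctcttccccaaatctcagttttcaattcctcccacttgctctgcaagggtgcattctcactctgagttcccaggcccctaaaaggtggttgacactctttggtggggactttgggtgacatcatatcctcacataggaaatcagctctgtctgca
The downstream Zbtb7b promoter held 1 RUNX match 89 bases before the start, and the Runx3 promoter shown held 2, as the reverse complement ACCACA, 134 and 126 bases before its start. The Foxp3 promoter shown held a GATA match 47 bases and a C/EBP match (TTTAGCAA on this strand) 22 bases before the start, and Cd8a held the C/EBP match TTGCAGAA 196 bases before it. None of these matches overlapped another. The upstream Zbtb7b promoter, the other Runx3 promoter, the other Foxp3 promoter, the Gata3 promoter and both Runx1 promoters held 0 matches, and those other than Zbtb7b are not shown. Over all 32851 promoters of the same length, RUNX letters occurred in 14%, GATA letters in 9.99%, C/EBP letters in 9.56% and the composite in 3.45%. Among the 10 member promoters the numbers were 2, 1, 2 and 0, in the same order of motifs. A match describes letters in this window and is not a site of binding.

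The 8 genes span a wide range of levels. Per kilobase of exon (union of exons, GENCODE M21 on GRCm38), Cd8a was the highest, Cd8b1 the next and Runx3 the third in each of the 6 groups: in untreated Rosa26 cells their levels were 260, 259 and 33.5 CPM per kilobase. In the same cells Gata3 had 3.34, Ikzf2 1.55, Foxp3 1.05, Runx1 1.05 and Zbtb7b 0.702 CPM per kilobase. Zbtb7b was the lowest of the 8 in all 3 untreated groups. In halofuginone-treated Rosa26 cells it had 4.80 CPM per kilobase and ranked 4 of the 8, above Ikzf2 at 4.18 and Gata3 at 3.32 CPM per kilobase.

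Zbtb7b had its highest level in drug-treated Rosa26 cells, 26.8 ± 1.91 CPM (SD, n = 3), against 3.92 ± 0.588 CPM in untreated Rosa26 cells. By library it had 26.1, 29.0 and 25.4 CPM in Rosa26 cells with halofuginone, against 4.14, 4.37 and 3.26 CPM in untreated Rosa26 cells. The groups were far apart, and 27.2% of all genes likewise had every treated Rosa26 library above every untreated one; the gene was picked for this change, so nothing is read from it. In Atf4 knockout cells it had 8.66, 9.67 and 9.07 CPM with halofuginone, against 1.85, 2.08 and 2.58 CPM untreated. In Cebpg knockout cells it had 8.42, 7.55 and 8.27 CPM with halofuginone, against 3.91, 3.92 and 3.78 CPM untreated. Both knockouts thus lay above their own untreated cells with the drug and below drug-treated Rosa26 cells, with no overlap in either case. The share of all genes likewise apart is not given for these knockout comparisons, and nothing is read from this lack of overlap either. The fitted log2 fold change with halofuginone was 1.06 in Cebpg knockout, 2.07 in Atf4 knockout and 2.77 in Rosa26 cells.

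In the order of levels of Zbtb7b, drug-treated Atf4 knockout and Cebpg knockout cells were neighbours that did not overlap, at 9.13 ± 0.51 and 8.08 ± 0.463 CPM (SD, n = 3 each). Untreated Cebpg knockout and Rosa26 cells overlapped, at 3.87 ± 0.0751 and 3.92 ± 0.588 CPM, and untreated Atf4 knockout cells were lowest at 2.17 ± 0.376 CPM. The log2 difference from Rosa26 was -1.73 in Cebpg knockout and -1.55 in Atf4 knockout cells with halofuginone, against -0.02 and -0.85 without it. The drug change was smaller than in Rosa26 by 1.71 log2 units in Cebpg knockout (interaction -1.71) and by 0.70 in Atf4 knockout (interaction -0.70). Zbtb7b had 30 to 539 counts per library. In bulk RNA, fewer cells of a type and less RNA per cell cannot be told apart, and this holds for each member.

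A gene annotated on the opposite strand of Zbtb7b, Gm15417, overlaps it, and the strand setting of the counting is not given in the sources used here, so reads of the pair could be mixed. Gm15417 averaged 3.18 CPM in Rosa26 cells with halofuginone (46 to 62 counts) and 0.0985 CPM in untreated Rosa26 cells (1 to 3 counts). Its levels were far under those of Zbtb7b in every group. Markers of CD4 helper cells were looked at beside Zbtb7b: of 11 listed genes 3 were in the table (Tnfsf8, Izumo1r and Cxcr5), and their summed level was 219 to 254 CPM in Rosa26 cells with halofuginone, against 77.3 to 85.1 CPM untreated. Most of that sum was Tnfsf8, the CD30 ligand, at 223 and 70.4 CPM. Izumo1r averaged 9.57 CPM with and 9 CPM without the drug, and Cxcr5 1.84 CPM with and 2.32 CPM without it. The summed level of the 3 genes was 292 to 301 CPM in treated and 100 to 102 CPM in untreated Cebpg knockout cells. In Atf4 knockout cells it was 340 to 383 CPM treated and 148 to 159 CPM untreated. Both treated knockouts thus lay above treated Rosa26 cells, where Zbtb7b was highest. The part of these genes in the Zbtb7b result was not tested.

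Foxp3 was lowest in untreated Rosa26 cells and stood higher in the other 5 groups, a pattern unlike that of Zbtb7b. Untreated Cebpg knockout cells had 5.83, 8.46 and 7.63 CPM and untreated Atf4 knockout cells had 11.3, 9.75 and 11.3 CPM, against 4.80, 4.73 and 4.94 CPM in untreated Rosa26 cells. Neither knockout overlapped with Rosa26, and the log2 difference was 0.60 in Cebpg knockout and 1.16 in Atf4 knockout cells. The share of all genes likewise apart is not given for these comparisons. Foxp3 was picked for its change, so nothing is read from the lack of overlap. With halofuginone the levels were 8.96, 8.44 and 7.15 CPM in Cebpg knockout, 8.35, 10.7 and 8.23 CPM in Atf4 knockout, and 8.23, 7.33 and 8.22 CPM in Rosa26 cells. The 3 drug-treated groups lay close together, with log2 differences from Rosa26 of 0.05 in Cebpg knockout and 0.20 in Atf4 knockout cells. The log2 change with drug was 0.17 in Cebpg knockout, -0.25 in Atf4 knockout and 0.72 in Rosa26 cells.

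The Foxp3 means by group ran 10.8 ± 0.912 CPM in untreated Atf4 knockout, 9.11 ± 1.41 in treated Atf4 knockout, 8.19 ± 0.931 in treated Cebpg knockout, 7.93 ± 0.518 in treated Rosa26, 7.31 ± 1.34 in untreated Cebpg knockout and 4.82 ± 0.108 CPM in untreated Rosa26 cells (SD, n = 3 each). Each neighbour in that order overlapped with the next except the last, untreated Rosa26. Foxp3 had only 79 to 184 counts per library. Overlapping genes in the table were Flicr on the same strand (0.461 to 2.09 CPM) and Ppp1r3f on the opposite strand (1.96 to 6.18 CPM), so reads may be shared. Both had their lowest group mean in untreated Rosa26 cells, as Foxp3 did. Ppp1r3f averaged 2.27 CPM there and 3.57 to 5.13 CPM in the other groups. Flicr averaged 0.585 CPM there and 1.11 to 1.39 CPM in the other groups. Whether shared reads shape the Foxp3 pattern was not tested. Of 16 listed regulatory T cell genes, all 16 were in the table, with a summed level of 1340 to 1410 CPM in untreated Cebpg knockout and 1350 to 1410 CPM in untreated Atf4 knockout, against 1340 to 1420 CPM in untreated Rosa26 cells. These ranges overlapped, but Il2ra made up much of each sum, at 730 CPM in untreated Cebpg knockout and 595 CPM in untreated Atf4 knockout, against 802 CPM in untreated Rosa26 cells. Gene by gene, 2 of the 16 were higher in untreated Cebpg knockout (5% of all genes were called), and 7 were higher and 1 lower in untreated Atf4 knockout (26% of all genes), with medians of 0.15 and 0.26 beside 0.01 and 0.02 over all genes. Their part in the Foxp3 result was not tested.

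**Figure D1:**
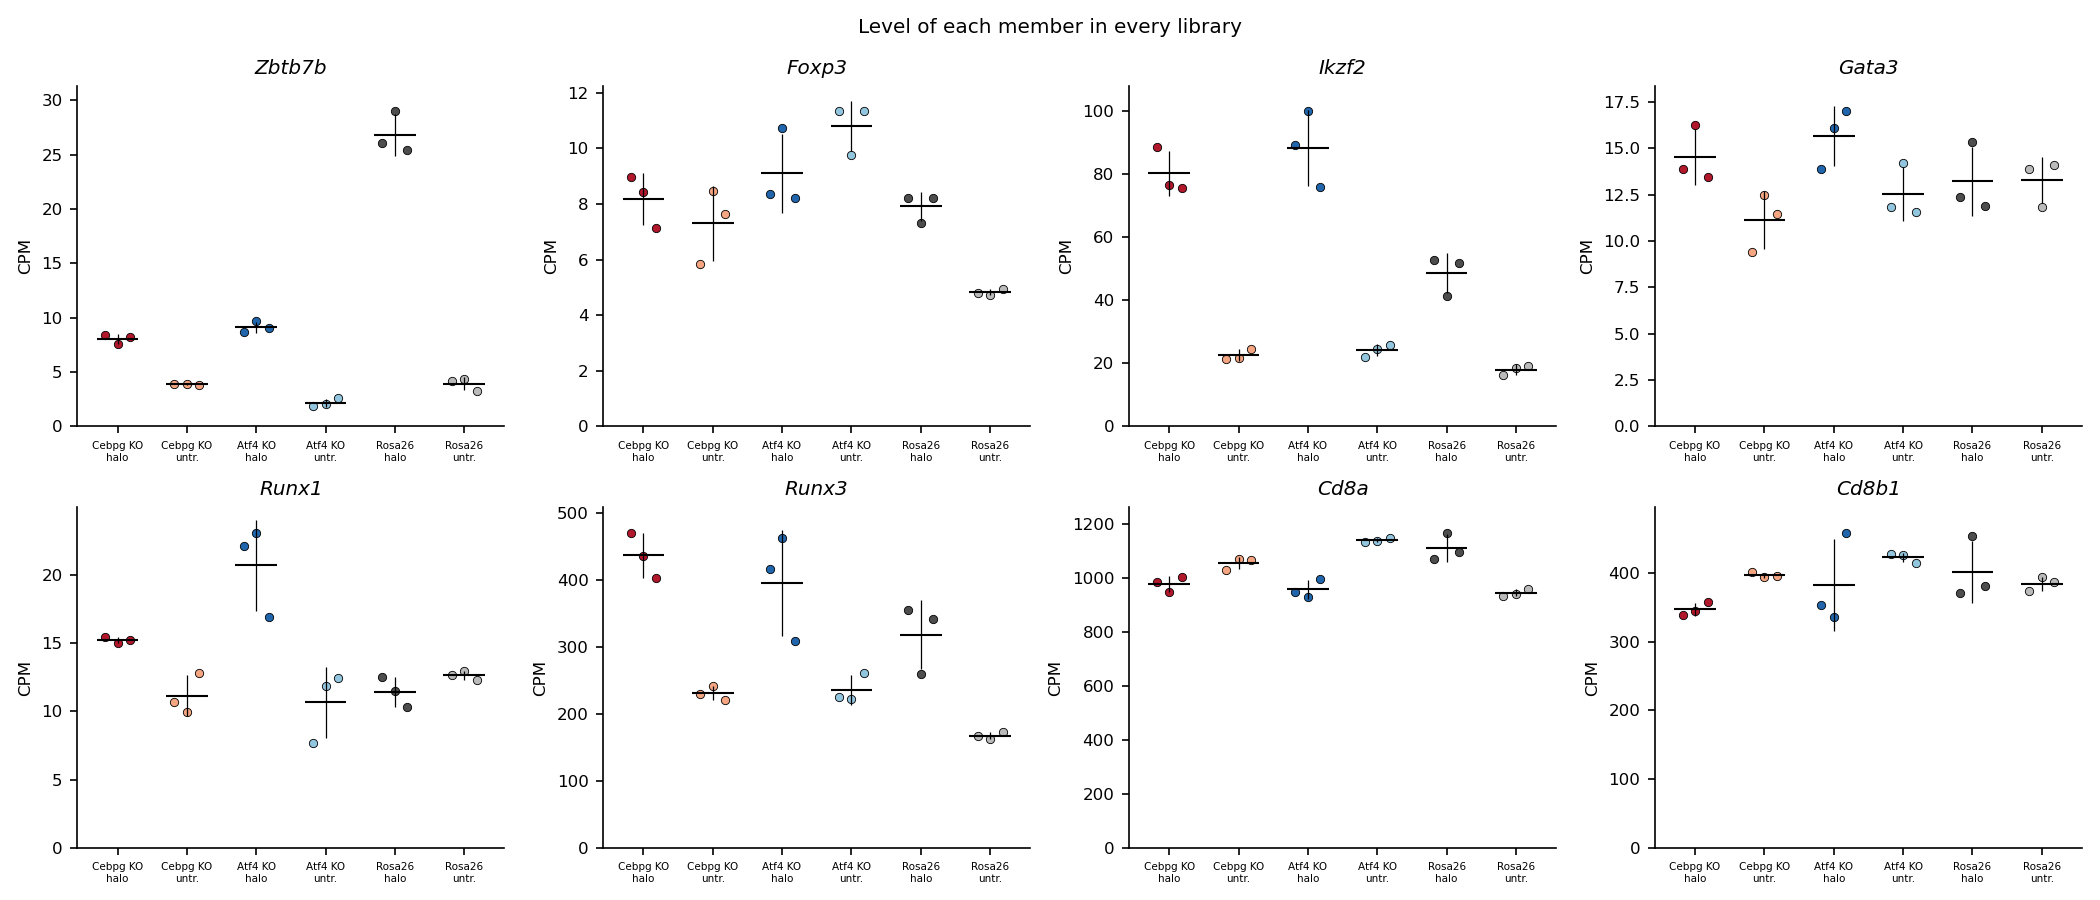
Level of each of the 8 genes in CPM (linear axis from 0) in each of the 18 libraries, by group (halo, halofuginone; untr., untreated; KO, knockout); points are libraries, horizontal lines are means and vertical lines span 1 SD to each side, n = 3. Zbtb7b at 25.4 to 29.0 CPM in treated Rosa26 cells stands over all other groups, Foxp3 is lowest in untreated Rosa26 cells, and Ikzf2 is higher in all 9 treated libraries than in any untreated one.

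Ikzf2, which encodes Helios, rose with halofuginone in each genotype and was higher in both knockouts than in Rosa26 cells when the drug was present. Its level in Cebpg knockout cells was 88.5, 76.6 and 75.5 CPM with halofuginone, against 21.2, 21.7 and 24.6 CPM untreated. Its level in Atf4 knockout cells was 89.3, 99.9 and 75.8 CPM with it, against 22.1, 24.6 and 25.8 CPM untreated. Its level in Rosa26 cells was 52.8, 41.3 and 51.6 CPM with it, against 16.2, 18.7 and 19.3 CPM untreated. Every treated library was above every untreated one, whatever the genotype. The log2 fold change was 1.83 ± 0.11 in Cebpg knockout (SE of the fit here and below; adjusted p = 6.15e-11, edgeR quasi-likelihood test), 1.87 ± 0.11 in Atf4 knockout (adjusted p = 5.06e-11) and 1.43 ± 0.12 in Rosa26 cells (adjusted p = 4.63e-09).

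With halofuginone, Ikzf2 was higher by 0.72 ± 0.11 log2 units in Cebpg knockout than in Rosa26 cells (edgeR adjusted p = 9.64e-05) and by 0.86 ± 0.11 in Atf4 knockout (adjusted p = 4.9e-06), without overlap of libraries. Without the drug the difference was 0.32 in Cebpg knockout (edgeR adjusted p = 0.121) and 0.42 ± 0.12 in Atf4 knockout (adjusted p = 0.014). The untreated Atf4 knockout call ended when replicate 3 of untreated Atf4 knockout, replicate 1 of untreated Rosa26 or replicate 2 of treated Cebpg knockout was left out (edgeR adjusted p 0.0542 to 0.074). Cebpg knockout passed untreated without the 3 libraries low in Malat1 (edgeR adjusted p = 0.00497) and with only the groups compared (0.00848). The drug response itself differed from Rosa26 by 0.40 in Cebpg knockout (edgeR adjusted p = 0.249) and by 0.44 in Atf4 knockout (adjusted p = 0.121), so it was not shown to differ. Without the 3 libraries low in Malat1 the Atf4 knockout difference of 0.43 passed (edgeR adjusted p = 0.00985), and the Cebpg knockout difference was 0.34 (adjusted p = 0.0741).

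Gata3 varied least among the 6 transcription factors: its highest library had 1.81 times the level of its lowest. Cebpg knockout cells had 13.9, 16.3 and 13.5 CPM with halofuginone, against 9.40, 12.5 and 11.5 CPM untreated, with no overlap. It rose there by 0.39 ± 0.14 log2 units (edgeR adjusted p = 0.0219), a call that ended without replicate 2 of the treated cells (adjusted p = 0.0663) or replicate 1 of the untreated cells (adjusted p = 0.128). Atf4 knockout cells had 13.9, 16.1 and 17 CPM with the drug, against 11.8, 14.2 and 11.6 CPM untreated, and the groups overlapped. The difference of 0.32 there did not pass (edgeR adjusted p = 0.0531). In Rosa26 cells the log2 difference was -0.01 with an interval of -0.29 to 0.27 (95%, edgeR adjusted p = 0.965), on 12.4, 15.3 and 11.9 CPM with the drug and 13.9, 11.8 and 14.1 CPM untreated. No comparison of a knockout with Rosa26 passed for Gata3, with log2 differences between -0.26 and 0.25.

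Runx1 rose with halofuginone in both knockouts and did not pass in Rosa26 cells. Atf4 knockout cells had 22.1, 23.1 and 16.9 CPM with the drug, against 7.70, 11.9 and 12.5 CPM untreated. Cebpg knockout cells had 15.5, 15.0 and 15.2 CPM with it, against 10.7, 9.96 and 12.8 CPM untreated. Rosa26 cells had 12.5, 11.5 and 10.3 CPM with it, against 12.7, 13 and 12.3 CPM untreated. The treated and untreated libraries were apart in both knockouts and overlapped in Rosa26 cells. The log2 fold change was 0.45 ± 0.15 in Cebpg knockout (edgeR adjusted p = 0.0176), 0.95 ± 0.15 in Atf4 knockout (adjusted p = 2.29e-05) and -0.14 ± 0.15 in Rosa26 cells (adjusted p = 0.486). The Cebpg knockout call ended without replicate 1 (edgeR adjusted p 0.0587) or replicate 2 (0.0823) of its untreated cells.

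The difference between responses was tested directly. The Runx1 response in Atf4 knockout cells exceeded that in Rosa26 cells by 1.09 ± 0.21 log2 units (edgeR interaction, adjusted p = 0.00367), and that in Cebpg knockout cells exceeded it by 0.59 ± 0.22, which did not pass (adjusted p = 0.19). With halofuginone, Runx1 was higher than in Rosa26 cells by 0.41 in Cebpg knockout (edgeR adjusted p = 0.0664) and by 0.85 ± 0.15 in Atf4 knockout cells (adjusted p = 0.000196). The knockouts themselves differed by -0.44 with the drug (Cebpg over Atf4, edgeR adjusted p = 0.169) and did not pass with all libraries in. Without the 3 libraries low in Malat1 the difference between the knockouts passed at -0.58 (edgeR adjusted p = 0.0115), and without replicate 3 of treated Atf4 knockout alone it passed at -0.57 (adjusted p = 0.0272). In the fit without the 3 libraries, treated Cebpg knockout also passed against Rosa26 cells at 0.41 (edgeR adjusted p = 0.0481), as it did with upper-quartile scaling (0.0363), DESeq2 (0.0372), a mean of at least 5 CPM (0.0308), only the groups compared (0.0233) and without replicate 3 of treated (0.0185) or replicate 1 of untreated Atf4 knockout (0.0261). The Cebpg knockout interaction passed with only the groups compared (edgeR adjusted p = 0.0243) and without replicate 3 of treated Atf4 knockout (0.0493).

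Runx3, the main RUNX factor of CD8 T cells, was the most abundant of the 6 transcription factors and rose with halofuginone in each genotype. Cebpg knockout cells had 470, 436 and 403 CPM with the drug, against 229, 242 and 221 CPM untreated. Atf4 knockout cells had 417, 461 and 308 CPM with it, against 224, 221 and 261 CPM untreated. Rosa26 cells had 354, 260 and 341 CPM with it, against 167, 162 and 173 CPM untreated. No treated library overlapped with its untreated group. The log2 fold change was 0.92 ± 0.13 in Cebpg knockout (edgeR adjusted p = 9.31e-06), 0.75 ± 0.13 in Atf4 knockout (adjusted p = 9.28e-05) and 0.93 ± 0.13 in Rosa26 cells (adjusted p = 1.12e-05).

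Untreated, Runx3 was higher than in Rosa26 cells by 0.46 ± 0.13 log2 units in Cebpg knockout (edgeR adjusted p = 0.0457) and by 0.49 ± 0.13 in Atf4 knockout cells (adjusted p = 0.00885). The Cebpg knockout call was close to the threshold: it ended when any of 13 of the 18 libraries was left out (edgeR adjusted p 0.0507 to 0.153), namely each untreated and treated Cebpg knockout library, each untreated Rosa26 library, replicate 3 of treated Rosa26, replicates 1 and 2 of untreated Atf4 knockout and replicate 1 of treated Atf4 knockout. It also ended with RLE scaling (edgeR adjusted p = 0.0722), upper-quartile scaling (0.0775) and a mean of at least 5 CPM (0.0558), while without the 3 libraries low in Malat1 it held at 0.46 (adjusted p = 2.12e-07). With halofuginone, Runx3 was higher than in Rosa26 cells by 0.46 ± 0.13 in Cebpg knockout (edgeR adjusted p = 0.0173), a call lost without replicate 1 or 2 of treated Cebpg knockout or replicate 2 of treated Rosa26 (adjusted p 0.0792 to 0.151). In treated Atf4 knockout cells the difference was 0.31 (edgeR adjusted p = 0.0759), which passed with DESeq2 (0.0381), without replicate 3 of treated Atf4 knockout (0.00513) or without replicate 1 of treated Rosa26 (0.0474).

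Runx3 was lowest within each treated group in the library that was lowest in Malat1: 403 CPM in replicate 3 of Cebpg knockout, 308 CPM in replicate 3 of Atf4 knockout and 260 CPM in replicate 2 of Rosa26. Without those 3 libraries the drug change was 1.01 in Cebpg knockout (edgeR adjusted p = 8.06e-16), 0.93 in Atf4 knockout (adjusted p = 6.62e-15) and 1.09 in Rosa26 cells (adjusted p = 2.13e-16), on 57.1%, 56.4% and 57.5% of all genes called. In the same fit the treated knockouts differed from Rosa26 by 0.38 (Cebpg knockout, edgeR adjusted p = 2.61e-05) and 0.35 (Atf4 knockout, adjusted p = 5.67e-05). Untreated Rosa26 cells had both the lowest mean Runx3 (167 CPM) and the lowest mean Malat1 (1016 CPM) of the 6 groups. The part of nuclear RNA in the level of Runx3 was not tested.

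**Figure D2:**
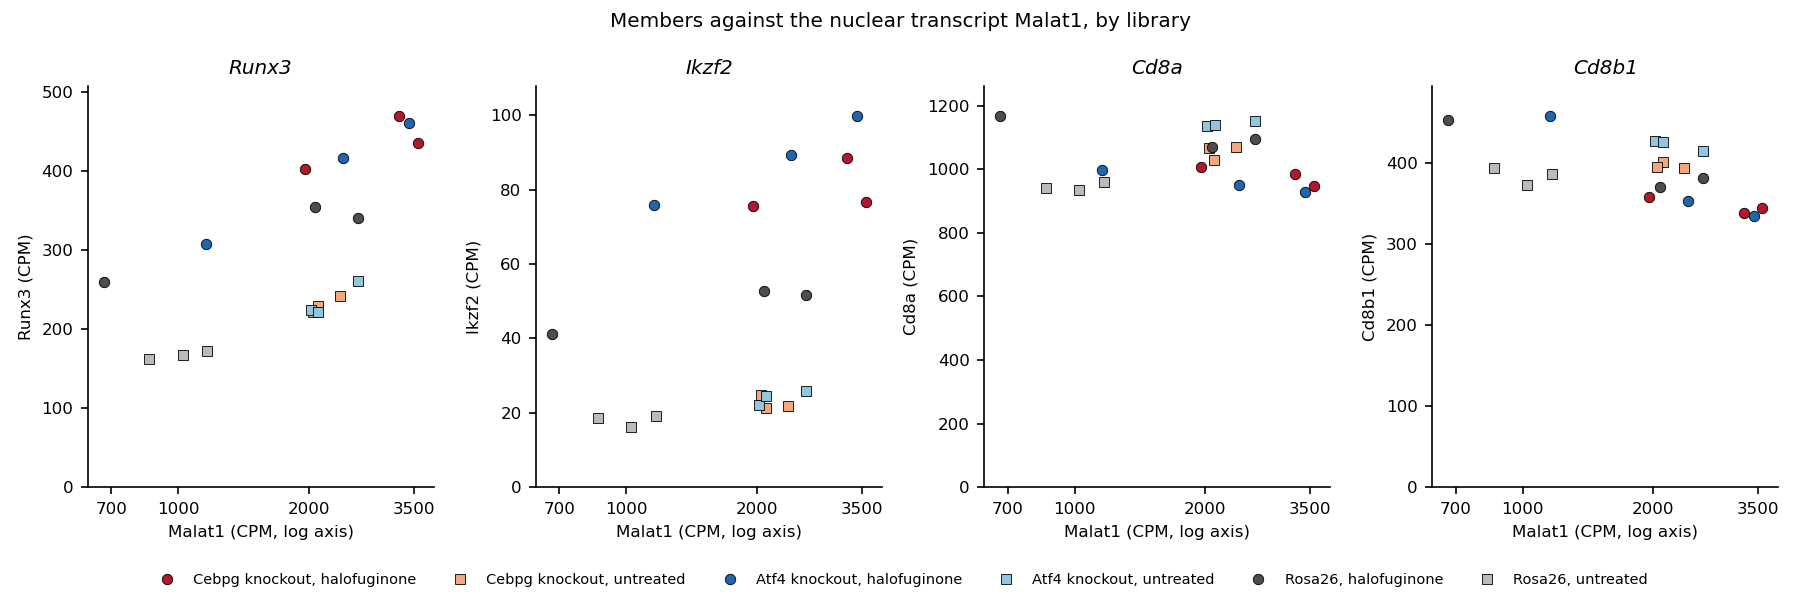
Level of Runx3, Ikzf2, Cd8a and Cd8b1 (CPM, linear axes from 0) against Malat1 (CPM, log axis) in the 18 libraries; circles are halofuginone libraries, squares are untreated libraries and colours are groups. The treated libraries at 672, 1158 and 1960 CPM of Malat1 have the lowest Runx3, the lowest Ikzf2 and the highest Cd8b1 of their own groups.

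The count of Runx1 reads for each Runx3 read gives the balance of this pair within a library, where no scaling enters. It was 0.0354, 0.0442 and 0.0303 in Rosa26 cells with halofuginone, against 0.0757, 0.0801 and 0.0711 untreated. In Cebpg knockout cells it was 0.0329, 0.0345 and 0.0377 with the drug, against 0.0467, 0.0412 and 0.058 untreated. In Atf4 knockout cells it was 0.0531, 0.05 and 0.0548 with the drug, against 0.0343, 0.0537 and 0.0476 untreated. The ratio was lower in treated than in untreated libraries without overlap in Rosa26 and Cebpg knockout cells, while the Atf4 knockout groups overlapped.

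Cd8a moved in opposite directions with halofuginone, up in Rosa26 cells and down in Atf4 knockout cells, by small amounts. Atf4 knockout cells had 950, 930 and 997 CPM with the drug, against 1136, 1139 and 1151 CPM untreated. Rosa26 cells had 1072, 1169 and 1096 CPM with it, against 936, 943 and 962 CPM untreated. Cebpg knockout cells had 987, 947 and 1006 CPM with the drug, against 1031, 1072 and 1066 CPM untreated. Treated and untreated libraries were apart in each genotype, higher with the drug in Rosa26 cells and lower in both knockouts. The log2 fold change was -0.11 in Cebpg knockout (edgeR adjusted p = 0.139), -0.25 ± 0.059 in Atf4 knockout (adjusted p = 0.00139) and 0.23 ± 0.059 in Rosa26 cells (adjusted p = 0.00286).

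The interaction was -0.49 log2 units for Atf4 knockout (edgeR adjusted p = 0.00142) and -0.34 for Cebpg knockout (adjusted p = 0.0339). The Cebpg knockout interaction ended when any of 12 of the 18 libraries was left out (edgeR adjusted p 0.0502 to 0.0957), namely each untreated library of the 3 genotypes, replicates 1 and 2 of treated Cebpg knockout and replicate 3 of treated Rosa26, and it ended with only the groups compared (0.0654). Untreated, Cd8a was higher than in Rosa26 cells by 0.16 in Cebpg knockout (edgeR adjusted p = 0.116) and by 0.27 in Atf4 knockout cells (adjusted p = 0.00234). The Cebpg knockout value passed without the 3 libraries low in Malat1 (edgeR adjusted p = 0.00244), with upper-quartile scaling (0.00854), with DESeq2 (0.00202), with a mean of at least 5 CPM (0.0139) and with only the groups compared (0.00288). The untreated knockouts differed by -0.11 (Cebpg over Atf4), which did not pass with all libraries in (edgeR adjusted p = 0.4). That difference passed at -0.13 without those 3 libraries (edgeR adjusted p = 0.0318), with only the groups compared (0.0322) and with DESeq2 (0.00858). With halofuginone Cd8a was lower than in Rosa26 cells, with a log2 difference of -0.18 in Cebpg knockout (edgeR adjusted p = 0.0362) and -0.22 in Atf4 knockout cells (adjusted p = 0.00956). These calls under halofuginone ended when only the compared groups were fitted, with adjusted p = 0.271 in Cebpg knockout and 0.185 in Atf4 knockout (edgeR). The Cebpg knockout call also ended with upper-quartile scaling (edgeR adjusted p = 0.134), with a mean of at least 5 CPM (0.0623) and without replicate 1 or 2 of treated Cebpg knockout or replicate 2 or 3 of treated Rosa26 (adjusted p 0.0517 to 0.0999).

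Cd8b1 passed in 0 of the 11 comparisons in edgeR, with 2 at an unadjusted p under 0.05 and 0 called by DESeq2. Cebpg knockout cells had 339, 344 and 358 CPM with halofuginone, against 401, 394 and 395 CPM untreated. Atf4 knockout cells had 354, 335 and 459 CPM with it, against 427, 426 and 415 CPM untreated. Rosa26 cells had 371, 453 and 381 CPM with it, against 374, 394 and 386 CPM untreated. The high values of 459 and 453 CPM were in the libraries low in Malat1, and the Atf4 knockout groups overlapped only through the 459 CPM library, while the Rosa26 groups overlapped with or without the 453 CPM library. The log2 difference with drug was -0.19 ± 0.09 in Cebpg knockout, -0.14 ± 0.09 in Atf4 knockout and 0.06 ± 0.09 in Rosa26 cells, with edgeR adjusted p of 0.0824, 0.203 and 0.61. Without the 3 libraries low in Malat1 it was -0.18 in Cebpg knockout (edgeR adjusted p = 0.000655), -0.26 in Atf4 knockout (adjusted p = 2.88e-06) and 0.01 in Rosa26 cells (adjusted p = 0.927), and the Atf4 knockout interaction was -0.26 (adjusted p = 0.00244). In that fit treated Cebpg knockout also passed against treated Rosa26 cells at -0.14 (edgeR adjusted p = 0.0322), and untreated Atf4 knockout against untreated Rosa26 cells at 0.15 (adjusted p = 0.00232). That untreated difference passed with upper-quartile scaling (edgeR adjusted p = 0.0184), a mean of at least 5 CPM (0.0324) and only the groups compared (0.0021). Without replicate 3 of treated Atf4 knockout, the drug change in both knockouts passed. So did the Atf4 knockout interaction and both treated knockouts against Rosa26 (edgeR adjusted p 0.000933 to 0.023 over these). Without replicate 2 of treated Rosa26 the Cebpg knockout drug change passed (edgeR adjusted p = 0.0484).

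The number of Cd8b1 reads for each Cd8a read was 0.346, 0.388 and 0.348 in Rosa26 cells with halofuginone, against 0.399, 0.418 and 0.402 untreated, with no overlap. It was 0.343, 0.363 and 0.356 in Cebpg knockout cells with the drug, against 0.389, 0.368 and 0.371 untreated, again with no overlap. In Atf4 knockout cells it was 0.373, 0.361 and 0.46 with the drug, against 0.376, 0.374 and 0.36 untreated, and the groups overlapped.

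Counted over the 6 tested members, halofuginone changed 4 in Cebpg knockout cells (all higher; 51% of all 14695 genes were called), 4 in Atf4 knockout cells (3 higher and 1 lower; 49.6% of all genes) and 3 in Rosa26 cells (all higher; 47.7% of all genes). With so large a share of all genes called, these counts are not a result about the members. The median log2 fold change of the 6 was 0.42, 0.53 and 0.15 in that order, beside -0.03, -0.04 and 0.02 over all genes. Against Rosa26 with halofuginone, 3 members passed in Cebpg knockout (2 higher and 1 lower; 18.9% of all genes) and 3 in Atf4 knockout (2 higher and 1 lower; 28.1%). Untreated, 1 passed in Cebpg knockout (5% of all genes) and 3 in Atf4 knockout (26%), all higher. Between Cebpg knockout and Atf4 knockout cells, 0 of 6 members passed with halofuginone (1% of all genes called) and 0 without it (3.32%) in edgeR. At an unadjusted p under 0.05 the numbers were 1 and 0, and with DESeq2 0 and 1. The interaction with drug passed for 1 member in Cebpg knockout (2.47% of all genes) and 2 in Atf4 knockout (6.42%). Comparisons that share a control group, such as both knockouts against Rosa26, are not independent.

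**Figure D3:**
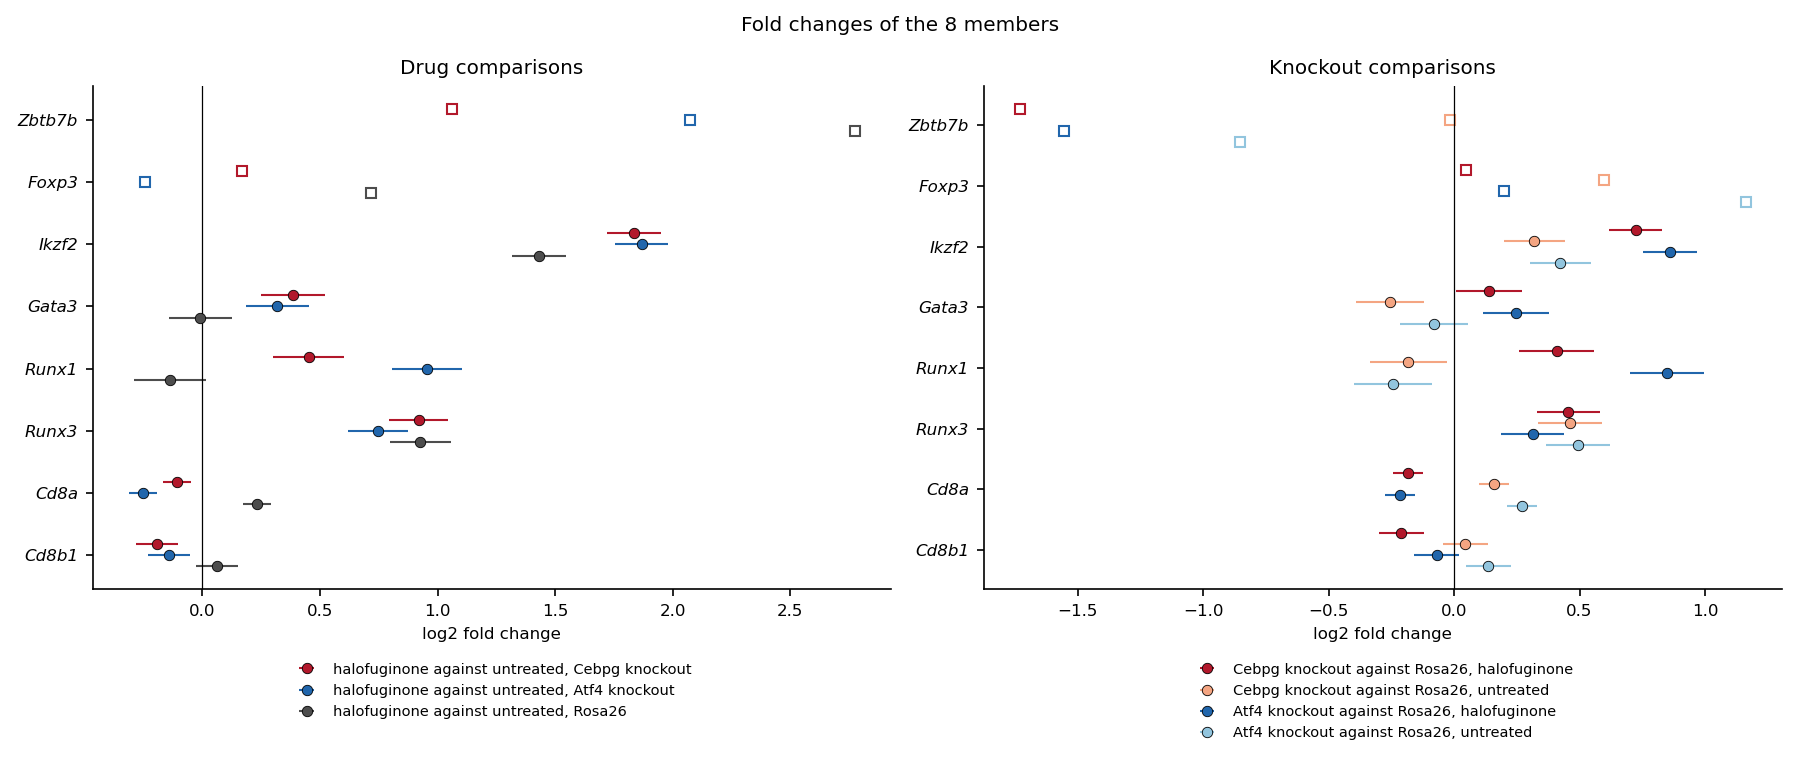
Log2 fold change of the 8 genes with halofuginone in each genotype (left) and in each knockout against Rosa26 (right); filled points are tested genes with the standard error of the fit as bars, open squares are Zbtb7b and Foxp3, given with no error or test. Ikzf2 and Runx3 lie right of 0 in every comparison shown, while Cd8a lies at 0.23 in Rosa26 and at -0.25 in Atf4 knockout cells.

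Relatives of the members in the same families were read beside them. Of the other Ikaros factors, 4 of 4 were in the table, and Ikzf4, which encodes Eos, a partner of FOXP3 in regulatory T cells, rose with the drug as Ikzf2 did. Ikzf4 averaged 81.5 ± 2.83 CPM with halofuginone and 44.9 ± 1.16 CPM without it in Cebpg knockout cells, 79.6 ± 1.49 and 46.3 ± 0.188 CPM in Atf4 knockout cells, and 63.0 ± 2.88 and 36.4 ± 3.06 CPM in Rosa26 cells (SD, n = 3 each). It rose with the drug by 0.86 ± 0.063, 0.78 ± 0.063 and 0.79 ± 0.064 log2 units in those 3 genotypes (edgeR adjusted p = 6.24e-10, 2.69e-09 and 3.7e-09). It was also higher in both knockouts than in Rosa26 cells with halofuginone, by 0.37 in Cebpg knockout and 0.34 in Atf4 knockout cells (edgeR adjusted p = 0.000276 and 0.000313). Untreated, Ikzf4 was higher by 0.30 and 0.35 (edgeR adjusted p = 0.0119 and 0.000587), and the Cebpg knockout call did not hold in every setting. Its interactions were 0.07 and -0.01 (edgeR adjusted p = 0.846 and 0.969), against 0.40 and 0.44 for Ikzf2, of which none passed with all libraries in. Ikzf1, which encodes Ikaros, had log2 differences between -0.10 and 0.05 in the drug and knockout comparisons, not past the threshold. Ikzf3, which encodes Aiolos, had -0.14, -0.26 and 0.01 with the drug in the same 3 genotypes, of which the Atf4 knockout value passed (edgeR adjusted p = 0.00431) except with upper-quartile scaling (0.0813), with only the groups compared (0.0574) or without replicate 3 of treated Atf4 knockout (0.092). Ikzf5 had -0.08 in Cebpg knockout, 0.06 in Atf4 knockout and -0.21 ± 0.07 in Rosa26 cells, of which the Rosa26 value passed (edgeR adjusted p = 0.0194). That call ended with upper-quartile scaling (edgeR adjusted p = 0.117), with a mean of at least 5 CPM (0.0767), without the 3 libraries low in Malat1 (0.0966) and without replicate 3 of treated (0.0645) or of untreated Rosa26 cells (0.106).

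The partner subunit of the RUNX factors moved the other way from Runx3. Cbfb averaged 192 ± 17.5 CPM with halofuginone and 296 ± 3.61 CPM without it in Cebpg knockout cells, 198 ± 22.0 and 273 ± 1.65 CPM in Atf4 knockout cells, and 232 ± 15.9 and 334 ± 9.40 CPM in Rosa26 cells. It fell, with log2 changes of -0.63 ± 0.074, -0.46 ± 0.074 and -0.53 ± 0.073 (edgeR adjusted p = 5.46e-07, 2.61e-05 and 6.1e-06). Runx2 rose by 0.39 ± 0.09, 0.32 ± 0.09 and 0.42 ± 0.091 in the same order (edgeR adjusted p = 0.00112, 0.00596 and 0.000696). Of the GATA family, 2 of 6 listed genes were in the table. Zfpm1, which encodes the GATA cofactor FOG1, fell, with log2 changes of -0.77 ± 0.086 in Cebpg knockout, -0.64 ± 0.086 in Atf4 knockout and -0.63 ± 0.084 in Rosa26 cells (edgeR adjusted p = 2.46e-07, 3.15e-06 and 3.66e-06). Gata1 was at 9.27 to 11.8 CPM by group mean and its drug difference was 0.35, -0.16 and 0.27 in that order, of which the Cebpg knockout value passed (edgeR adjusted p = 0.0225) except without replicate 3 of the treated or replicate 2 or 3 of the untreated Cebpg knockout cells (0.0833, 0.0713 and 0.0689). Of the FOXP family, Foxp1, a factor of T cell quiescence, rose by 0.63 ± 0.051, 0.53 ± 0.05 and 0.68 ± 0.051 with the drug (edgeR adjusted p = 2.33e-09, 3.36e-08 and 1.06e-09), and Foxp4 did not pass (-0.12, -0.12 and -0.07).

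Other genes of lineage and function were read from lists. The counts with halofuginone stand beside 51% of all genes called in Cebpg knockout, 49.6% in Atf4 knockout and 47.7% in Rosa26 cells, and no list was tested as a set. Of 19 measured regulators of thymic lineage choice, 9 rose and 6 fell with halofuginone in Cebpg knockout, 8 rose and 6 fell in Atf4 knockout, and 6 rose and 8 fell in Rosa26 cells. Lef1, a TCF family factor of naive T cells, rose by 1.11 ± 0.061, 0.99 ± 0.061 and 1.02 ± 0.061 log2 units, and Dnmt1, the maintenance DNA methyltransferase, fell, with log2 changes of -1.18 ± 0.054, -1.22 ± 0.054 and -0.74 ± 0.053 (for both genes the edgeR adjusted p was at most 6.99e-10 in each genotype). Of 9 measured T helper lineage factors, 7 rose and 1 fell in Cebpg knockout, 7 rose in Atf4 knockout and 8 rose in Rosa26 cells, with medians of 0.79, 0.88 and 0.79 beside -0.03, -0.04 and 0.02 over all genes. Rora, which encodes RORα, rose most of those named, to 17.1 ± 0.547 CPM with halofuginone against 3.37 ± 0.293 CPM untreated in Cebpg knockout, 19.4 ± 1.69 against 3.55 ± 0.485 CPM in Atf4 knockout and 12.4 ± 0.646 against 2.82 ± 0.526 CPM in Rosa26 cells. Of 18 factors of CD8 effector and memory cells, 8 rose and 7 fell in Cebpg knockout, 8 rose and 6 fell in Atf4 knockout and 9 rose and 7 fell in Rosa26 cells. Bach2, a repressor that holds T cells in a naive or memory state, rose by 1.85 ± 0.082, 1.60 ± 0.081 and 1.87 ± 0.083 (edgeR adjusted p = 3.64e-13, 2.89e-12 and 6.44e-13).

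Of the 16 regulatory T cell genes, 7 rose and 3 fell with halofuginone in Cebpg knockout, 7 rose and 2 fell in Atf4 knockout and 7 rose in Rosa26 cells, and without the 3 libraries low in Malat1 the numbers were 7 and 3, 7 and 5, and 9 higher. Nt5e, the ecto-enzyme CD73, rose by 1.46 ± 0.069, 1.19 ± 0.067 and 1.80 ± 0.071 log2 units in that order of genotypes (edgeR adjusted p = 9.56e-13, 1.39e-11 and 1.28e-13). Untreated, 2 of the 16 were higher in Cebpg knockout than in Rosa26 cells, and 7 were higher and 1 lower in Atf4 knockout (6 and 1, and 7 and 2, without the 3 libraries low in Malat1), Nt5e among them at 0.55 and 0.99 (edgeR adjusted p = 0.000456 and 3.43e-08). With the drug, 3 of the 16 were higher and 2 lower in Cebpg knockout than in Rosa26 cells (18.9% of all genes were called). In Atf4 knockout 4 were higher and 3 lower (28.1% of all genes). Without the 3 libraries low in Malat1 the numbers were 4 and 2, and 5 and 5. Il2ra, the interleukin-2 receptor α chain, was lower in both treated knockouts, with log2 differences of -0.36 in Cebpg knockout and -0.50 in Atf4 knockout (edgeR adjusted p = 0.000386 and 4.55e-06). Of 12 measured cytotoxic CD8 genes, 6 rose and 2 fell in Cebpg knockout, 6 rose and 2 fell in Atf4 knockout and 7 rose and 2 fell in Rosa26 cells. Itgae, the integrin αE (CD103), rose by 1.67 ± 0.072, 1.43 ± 0.07 and 1.43 ± 0.074 (edgeR adjusted p = 2.38e-13, 2.02e-12 and 4.71e-12) and was also higher in both treated knockouts than in treated Rosa26 cells, by 0.91 in Cebpg knockout and 1.13 in Atf4 knockout (adjusted p = 2.94e-08 and 7.31e-10). Of 15 T cell identity genes, 2 rose and 8 fell in Cebpg knockout, 3 rose and 5 fell in Atf4 knockout and 1 rose and 8 fell in Rosa26 cells. Without the 3 libraries low in Malat1 the numbers were 4 and 9, 3 and 9, and 4 and 8. Among those that fell was Zap70, a kinase of T cell receptor signalling, with -0.70, -0.53 and -0.73 (edgeR adjusted p = 2.84e-07, 1.21e-05 and 1.79e-07).

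The genes whose level over the 18 libraries was most like a member's were named by Pearson's r of log2 CPM, as a description; the libraries share groups and scaling, so r reflects mostly the group means. Zbtb7b was most like Slc6a9 (r = 0.976), which encodes a glycine transporter, Aars1 (r = 0.967), the cytosolic alanyl-tRNA synthetase, and Trib3 (r = 0.961), a pseudokinase of the stress response. Trib3 averaged 77.8 ± 8.83 CPM with and 51.4 ± 3.8 CPM without halofuginone in Cebpg knockout, 102 ± 17.4 and 41.3 ± 3.75 CPM in Atf4 knockout, and 319 ± 32.3 and 51.3 ± 1.16 CPM in Rosa26 cells. Like Zbtb7b, it was highest in treated Rosa26 and lowest in untreated Atf4 knockout cells. Foxp3 was most like Zfhx2 (r = 0.924), Nfx1 (r = 0.906) and Setbp1 (r = 0.891). Zfhx2 averaged 15.7 ± 0.796 CPM in untreated Atf4 knockout, against 7.52 ± 0.937 CPM in untreated Rosa26 cells. Ikzf2 was most like Rbm33 (r = 0.995), Kmt2e (r = 0.993) and Fyb1 (r = 0.993), and Gata3 most like Mcur1 (r = 0.84), Ube2d2a (r = 0.839) and Tmf1 (r = 0.818). Among the members themselves Ikzf2 and Runx3 were the most alike (r = 0.95), and Runx1 and Cd8a the most opposed (r = -0.66).

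**Figure D4:**
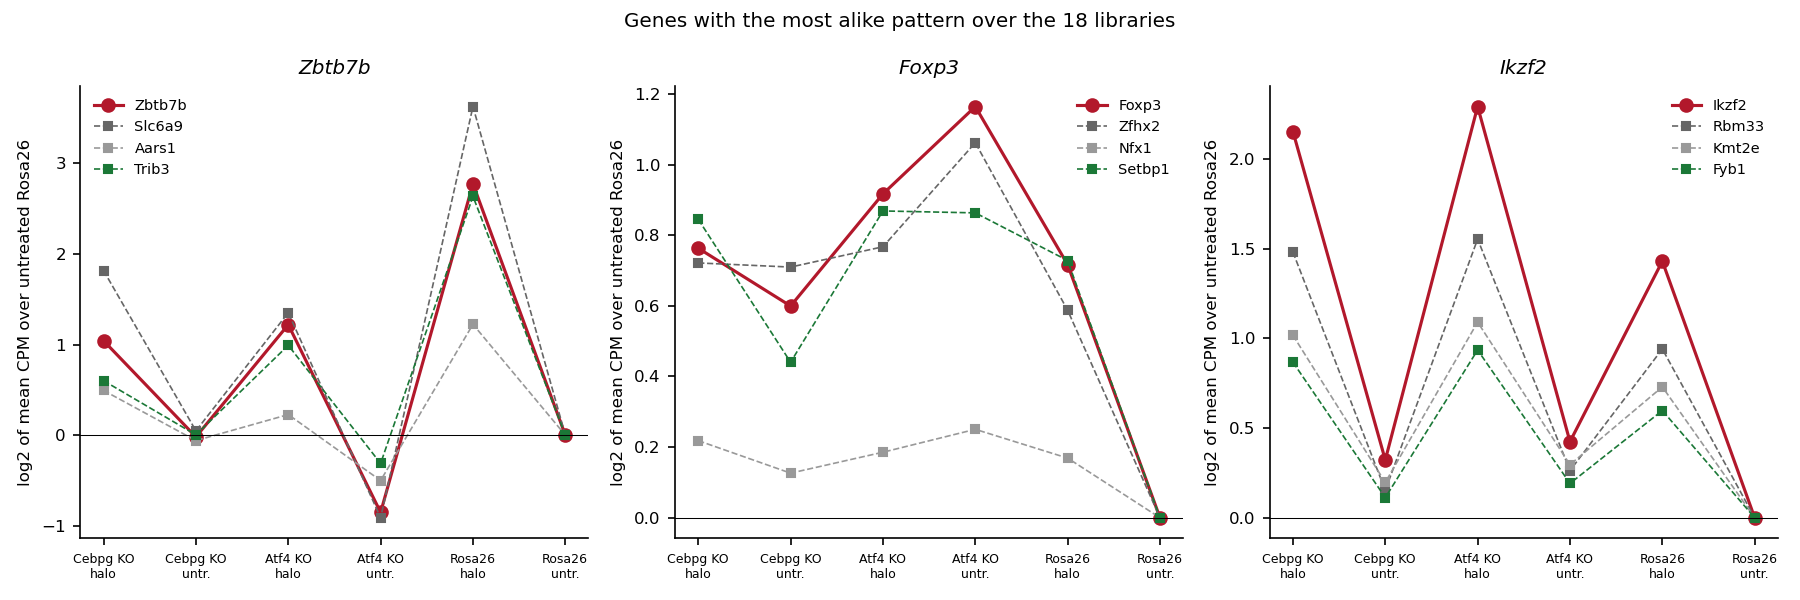
Mean level by group of Zbtb7b, Foxp3 and Ikzf2 and of the 3 genes most like each, as log2 of the mean CPM over that of untreated Rosa26 cells; lines join the groups of a gene as a guide. Zbtb7b and its 3 alike genes are highest in treated Rosa26 cells and lowest in untreated Atf4 knockout cells, while Foxp3 peaks in untreated Atf4 knockout cells.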

How the data were processed

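The authors deposited a table of raw counts per gene, and its values were whole numbers in all 18 libraries. Per the labels' protocols, poly-A RNA was made into directional libraries with random hexamers and dUTP. FastQC, MultiQC, Trimmomatic, STAR, HTSeq and edgeR were used with the mouse build GRCm39, per the submitters' processing notes; their versions and settings, strand included, and the annotation release were not given in the sources used. The table's 14695 genes had been filtered on low counts: filterByExpr kept all of them, and all 8 members passed. Blank names (449) were filled by identifier for 431 genes.

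All libraries entered 1 edgeR 4.0.16 quasi-likelihood fit (R 4.3.3, TMM scaling, robust prior) with 6 group terms and 11 comparisons. A call is a Benjamini-Hochberg adjusted p under 0.05 over all genes. Levels in CPM use TMM-scaled library sizes, ± on a log2 fold change is the standard error of the fit, and ± on a level is the SD. Total counts of 14.2 to 20.3 M (mega) per library set the counting error. On data simulated for halofuginone in Rosa26 cells, with 200 of 14695 genes changed, 47.6%, 71.9% and 83.6% of changes of 0.5, 1 and 2 log2 units were recovered. The real comparison called 47.7% of all genes, so these shares do not give the power of the tests reported here. Alternatives were RLE and upper-quartile scaling, DESeq2 1.42.0, a mean of at least 5 CPM, a replicate block, only the groups compared, leaving out the 3 libraries low in Malat1, and leaving out each library. No libraries of a group were the same within sampling noise. The members, the 16 gene lists (113 of 160 genes measured) and the tests were chosen with earlier results of these data known. Genes named outside the 8 members are the measured members of the RUNX, GATA, Ikaros and FOXP families, those with the smallest 2 p-values of each other list in a comparison, and the 3 most alike genes by r; such a gene is also given in other comparisons, and Izumo1r and Cxcr5 are given as the other measured helper genes. Gene lengths come from GENCODE M21 on GRCm38 and promoters from RefSeq on GRCm38.p6, so no gene coordinates of GRCm39 are printed.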

Additional observations from a re-analysis of the deposited data

Results flagged for a closer look

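The drug response of Runx1 differed between Atf4 knockout and Rosa26 cells by 1.09 log2 units in a test of the difference itself (edgeR interaction, adjusted p = 0.00367). The drug response of Cd8a differed from that in Rosa26 cells by -0.49 log2 units in Atf4 knockout (adjusted p = 0.00142) and by -0.34 in Cebpg knockout cells (adjusted p = 0.0339), again by the edgeR interaction. The Cebpg knockout call ended when any of 12 of the 18 libraries was left out (edgeR adjusted p 0.0502 to 0.0957). It also ended with a replicate block (edgeR adjusted p = 0.0595) and with only the groups compared (0.0654).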

How the results depend on the processing

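Over 25 alternative settings, no log2 fold change of the 6 tested genes reversed among called values (1650 values), 1547 kept their side of the threshold, 50 lost it and 53 gained it; the values of Zbtb7b and Foxp3 moved by less than the spread between replicates in all 550. The count of called members in untreated Cebpg knockout against Rosa26 cells, 1, became 0 with RLE scaling, 2 with DESeq2, 3 without the 3 libraries low in Malat1, 3 with only the groups compared, and 0 to 1 with each library left out. With each library left out, the count ran from 2 to 5 for halofuginone in Cebpg knockout (4), 3 to 5 for Atf4 knockout against Rosa26 with halofuginone (3), 1 to 5 for Cebpg knockout against Rosa26 with halofuginone (3), 0 to 1 between the treated knockouts (0), 2 to 4 for the Atf4 knockout interaction (2) and 0 to 2 for the Cebpg knockout interaction (1). Without the 3 libraries low in Malat1 it was 5 for Cebpg knockout against Rosa26 with halofuginone (23.2% of all genes called, against 18.9%). It was 4 for the Atf4 knockout interaction in that fit (14.9%, against 6.42%). Between the knockouts it was 1 with the drug (4.91%, against 1%) and 1 without it (11.8%, against 3.32%). For untreated Cebpg knockout against Rosa26 the same fit called 26.7% of all genes, against 5%. Between the untreated knockouts the count was also 1 with DESeq2 and 1 with only the groups compared. The cause was not tested, other than that the last setting fits fewer samples.

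The labels do not say what a replicate number marks. Over 45 pairs of libraries with the same number the correlation of deviations ran from -0.687 to 0.527 (9 over 0.1). Of 18 libraries, 6 correlated best with their own number. Treated libraries low in Malat1 have different numbers, and replicate 3 of Atf4 knockout and replicate 2 of Rosa26 had r = 0.76. That likeness could mask a shared mouse or day, so the check cannot show whether the numbers pair the samples. With a replicate block the count was 0 for untreated Cebpg knockout against Rosa26 (Runx3, edgeR adjusted p = 0.0699), 0 for the Cebpg knockout interaction (Cd8a, 0.0595) and 2 for treated Cebpg knockout against Rosa26, where Cd8a was lost (0.0523); Gata3 passed with halofuginone in Atf4 knockout (edgeR adjusted p = 0.0391), as it did with RLE scaling (0.023), upper-quartile scaling (0.0183), DESeq2 (0.0248) and a mean of at least 5 CPM (0.0159). Upper-quartile scaling moved the median of all genes for halofuginone in Cebpg knockout to 0.078, against -0.029 with TMM. Among all called genes, the share that was higher moved to 26.2% with RLE scaling, against 54.1% with TMM, in untreated Cebpg knockout against Rosa26, and to 50.7% with upper-quartile scaling, against 30.4%, in treated Cebpg knockout. Depth limits Zbtb7b and Foxp3 most, with as few as 30 and 79 counts in a library.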

Other observations

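Factors of effector and memory CD8 cells were also compared between the knockouts and Rosa26 cells. With halofuginone, 2 of 18 were higher and 6 lower in Cebpg knockout (18.9% of all genes were called), and 6 higher and 8 lower in Atf4 knockout (28.1% of all genes), with no test of the list (without the 3 libraries low in Malat1, 6 and 6, and 6 and 7). Eomes, a T-box factor of memory and cytotoxic cells, was lower in treated Cebpg knockout than in treated Rosa26 cells by a log2 difference of -0.53 ± 0.1 (edgeR adjusted p = 0.000787). In treated Atf4 knockout cells, Batf3, an AP-1 family factor, and Irf8, its interferon regulatory partner in dendritic cells, were lower, with log2 differences of -1.56 ± 0.19 and -0.75 ± 0.082 (edgeR adjusted p = 4.56e-06 and 9.06e-07). Nfil3, a basic leucine zipper repressor on the T helper list, was lower with the drug in both knockouts, with -0.91 ± 0.11 in Cebpg knockout and -1.04 ± 0.11 in Atf4 knockout (edgeR adjusted p = 8.5e-06 and 5.59e-07). Tnfrsf4, the costimulatory receptor OX40, was higher in untreated Atf4 knockout than in untreated Rosa26 cells by 0.86 ± 0.12 (edgeR adjusted p = 3.48e-05).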
